A study of Mus musculus with 12 samples.

Results

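The genes described here encode the voltage-gated sodium channels, the voltage-gated calcium channels and the pacemaker channels of the mouse left ventricle. They were taken by name from the deposited count table, as the genes whose symbols start with Scn followed by a number and a or b, with Cacna, Cacnb or Cacng, or with Hcn followed by a number. Antisense entries ending in os were left out. This gave 43 of 29564 genes, made up of 13 sodium channel genes, 26 calcium channel genes and 4 pacemaker channel genes. Of these, 31 passed the filter on low counts and were tested, out of 14333 genes tested in all. The symbol Scn2a1, an older name of Scn2a, lies outside the naming rule and reached at most 0.354 CPM (counts scaled by library size) in any library.

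Messenger RNA with poly(A) tails from the left ventricle of wild-type C57BL6 mice was sequenced in 12 libraries, each from its own mouse, with 4 mice in each of 3 groups. Control-Veh mice had no heart failure and were dosed with vehicle (libraries C1 to C4). In HFpEF-Veh mice, heart failure with preserved ejection fraction (HFpEF) was modelled by a high-fat diet together with L-NAME, which blocks nitric oxide synthase, and vehicle was given (V1 to V4). HFpEF-TYA-018 mice carried the same model and received 15 mg/kg of TYA-018 by mouth (T1 to T4). Where values are given for the 3 groups without a label, Control-Veh comes first, then HFpEF-Veh, and HFpEF-TYA-018 last. TYA-018 inhibits HDAC6, a mainly cytoplasmic deacetylase. The series title speaks of 1 dose and the treatment text of daily dosing. The study describes hearts collected hours after 1 dose, and the title was followed here. All 3 groups share strain, genotype and tissue, and the labels give no age, sex or batch. Animal numbers of each group lie together, so a date, a cage or an order of handling cannot be told apart from the group.

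Voltage-gated channels open when the membrane potential changes and set the shape of the cardiac action potential. Sodium channel pores carry the fast upstroke, and their beta subunits tune gating and anchoring. The L-type calcium channel, with the pore Cav1.2 (Cacna1c), a cytoplasmic beta subunit (Cacnb2) and an alpha2delta subunit (Cacna2d1), admits the calcium that triggers release from the sarcoplasmic reticulum and so couples excitation to contraction. T-type channels (Cacna1g, Cacna1h) open at more negative potentials and are best known from the sinoatrial node and the developing ventricle. HCN channels open on hyperpolarisation and carry the pacemaker current, with Hcn4 the main form in the sinoatrial node.

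Promoter sequence is shown for the genes on which the results below turn and for which the reference table held an entry with a stretch free of annotated exons: 4 genes that were called in at least 2 comparisons, and Hcn2 as the more abundant pacemaker gene that was not called. The sequences are from RefSeq (GRCm38.p6), lie within the 250 bases before the annotated start, run 5′ to 3′ on the strand of the gene, and have GC boxes (GGGCGG on either strand) and AGATAA sites (either strand) in capitals. The Hcn4 stretch is chr9:58822699-58822948 on the plus strand and the Hcn2 stretch is chr10:79716384-79716633 on the plus strand. The Scn7a stretch is chr2:66784915-66785160 on the minus strand. The Cacna1s stretch is chr1:136052561-136052749 on the plus strand, and the Cacnb2 stretch, before the second of its listed starts, is chr2:14823842-14824025 on the plus strand.
Hcn4: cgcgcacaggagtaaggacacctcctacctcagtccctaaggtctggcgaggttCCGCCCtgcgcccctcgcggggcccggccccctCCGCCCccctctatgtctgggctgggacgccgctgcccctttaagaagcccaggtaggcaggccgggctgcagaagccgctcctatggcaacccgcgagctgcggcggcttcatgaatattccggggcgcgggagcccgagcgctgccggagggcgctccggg
Hcn2: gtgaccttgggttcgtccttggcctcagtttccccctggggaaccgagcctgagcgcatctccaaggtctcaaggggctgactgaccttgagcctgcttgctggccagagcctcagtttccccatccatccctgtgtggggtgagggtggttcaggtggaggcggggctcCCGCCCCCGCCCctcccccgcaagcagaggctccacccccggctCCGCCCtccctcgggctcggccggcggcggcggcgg
Scn7a: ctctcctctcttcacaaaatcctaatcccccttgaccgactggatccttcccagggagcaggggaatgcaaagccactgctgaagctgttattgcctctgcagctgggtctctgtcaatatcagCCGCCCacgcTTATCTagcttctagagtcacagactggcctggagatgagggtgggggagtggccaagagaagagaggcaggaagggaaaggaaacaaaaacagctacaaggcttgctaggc
Cacna1s: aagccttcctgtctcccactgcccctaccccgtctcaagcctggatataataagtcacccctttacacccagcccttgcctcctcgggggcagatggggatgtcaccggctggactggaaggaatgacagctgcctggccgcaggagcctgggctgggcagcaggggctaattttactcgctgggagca
Cacnb2: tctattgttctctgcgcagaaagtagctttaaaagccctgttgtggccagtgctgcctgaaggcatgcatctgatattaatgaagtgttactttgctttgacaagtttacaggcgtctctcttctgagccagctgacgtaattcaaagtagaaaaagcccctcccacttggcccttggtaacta

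Both pacemaker gene stretches were rich in GC, at 71.2% for Hcn4 and 70.4% for Hcn2, with 25 and 16 CpG pairs. The Cacna1s, Scn7a and Cacnb2 stretches had 60.8%, 53.7% and 45.1% GC with 5, 3 and 3 CpG pairs. The Hcn4 stretch held 2 GC boxes, Hcn2 held 3, Scn7a held 1, and none was found in the stretches shown for Cacna1s and Cacnb2. Over the whole windows in the table, which also take in 50 bases after the start, 17 of 41 promoters of 31 channel genes held a GC box (41.5%), against 32.7% of all 32851 promoters. Cacna1s and Cacnb2 were among the genes with a GC box in a whole window, which the stretches shown for them do not include. The TATA letters TATAAA were found in 1 of the 41 (2.44%) against 12.4% of all, and AGATAA in 1, that of Scn7a, against 9.99%. The E-box CACGTG and the T-box half-site AGGTGTGA were found in 0 of the 41, against 6.02% and 1.12% of all promoters. These matches describe letters in the reference sequence only, and no binding was measured.

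Total counts were between 61.2 M and 83.9 M per library and did not separate the groups. The share of counts from mitochondrially encoded genes was 37.0% to 40.6%, 43.1% to 47.7% and 35.4% to 41.2% in the 3 groups. The share from globin genes was 0.154% to 0.240%, 0.420% to 1.32% and 0.255% to 0.341%. The effective length that salmon assigned to a gene, relative to its mean over libraries, was also longest in HFpEF-Veh (median log2 value 0.04 to 0.11, against -0.06 to 0.01 in Control-Veh and -0.16 to 0.01 in HFpEF-TYA-018). Each of these 3 measures separated HFpEF-Veh from both other groups (exact two-sided permutation p = 0.0286, the smallest that 4 against 4 allows; adjusted p = 0.0490 over 12 tests). No 2 libraries were near-copies, with a highest correlation of 0.991.

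The tissue was a ventricle by its markers, and HFpEF-Veh differed in cell type markers as well. The summed level of 8 ventricular myocyte markers was 23925 to 34544, 19214 to 21471 and 23013 to 25807 CPM in the 3 groups. In HFpEF-Veh against Control-Veh, 6 of the 8 were lower (Myh6, Tnnt2, Tnni3, Myl2, Myl3 and Pln) and 0 higher, with a median log2 fold change of -0.52. In HFpEF-TYA-018 against HFpEF-Veh, 4 were higher (Myh6, Actn2, Myl3 and Pln), with a median of 0.27. The 5 macrophage markers summed to 76.2 to 89.9, 117 to 151 and 81.6 to 95.4 CPM, with 5 of 5 higher in HFpEF-Veh against Control-Veh and 3 of 5 lower in HFpEF-TYA-018 against HFpEF-Veh. Of 6 endothelial markers (1288 to 1482, 1490 to 1811 and 1205 to 1460 CPM), 3 were higher in the first of these comparisons and 4 lower in the second, and of 6 fibroblast markers (569 to 973, 923 to 1335 and 600.3 to 944 CPM), 2 were higher and 3 lower. All 5 red cell markers were higher and then lower. Of all genes tested, 21.2% were called in the first of these comparisons and 19.3% in the second. Called shares were 75% and 50% for ventricular, 100% and 60% for macrophage, 50% and 66.7% for endothelial, and 33.3% and 50% for fibroblast markers. The other lists had at most 2 members called in any comparison, at 0% to 40% of those tested, several near the shares of all genes. The part of these shifts in the channel results was not tested. In whole ventricle, fewer cells of a type and less RNA per cell cannot be told apart.

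By level per length, the channel genes of the ventricle were led by the L-type calcium channel. Cacna1c was the most abundant in every group, at 12.4 ± 0.944, 7.25 ± 0.875 and 11.98 ± 3.82 TPM in the 3 groups (TPM, counts scaled by length and library size, as mean ± SD with n = 4 throughout). In Control-Veh, the calcium and pacemaker genes that followed were Cacna1s (7.38 TPM), Cacnb2 (4.86), Cacna2d1 (3.07), Cacna1g (3.03) and Hcn2 (1.98). The libraries of Cacna1c, Cacna1s, Cacnb2 and Cacna2d1 did not overlap between neighbours in this order, whereas those of Cacna2d1 and Cacna1g did. In HFpEF-Veh their order was Cacna1c, Cacna1s (4.40 TPM), Cacna2d1 (2.23), Cacnb2 (2.13), Hcn2 (1.99) and Cacna1g (1.05), and of these Cacna1c and Cacna1s alone were separated from the next by non-overlapping libraries. In HFpEF-TYA-018 neighbours in the order Cacna1c, Cacna1s, Cacnb2, Cacna1g, Cacna2d1 and Hcn2 overlapped. Group means reached 1 TPM for 7, 7 and 9 of the 43 genes in the 3 groups and stayed under 0.1 TPM for 23, 26 and 21. TPM of a gene depends on its effective length in each library, which for some of these genes is far from the annotated transcript, as described further on.

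**Figure D1:**
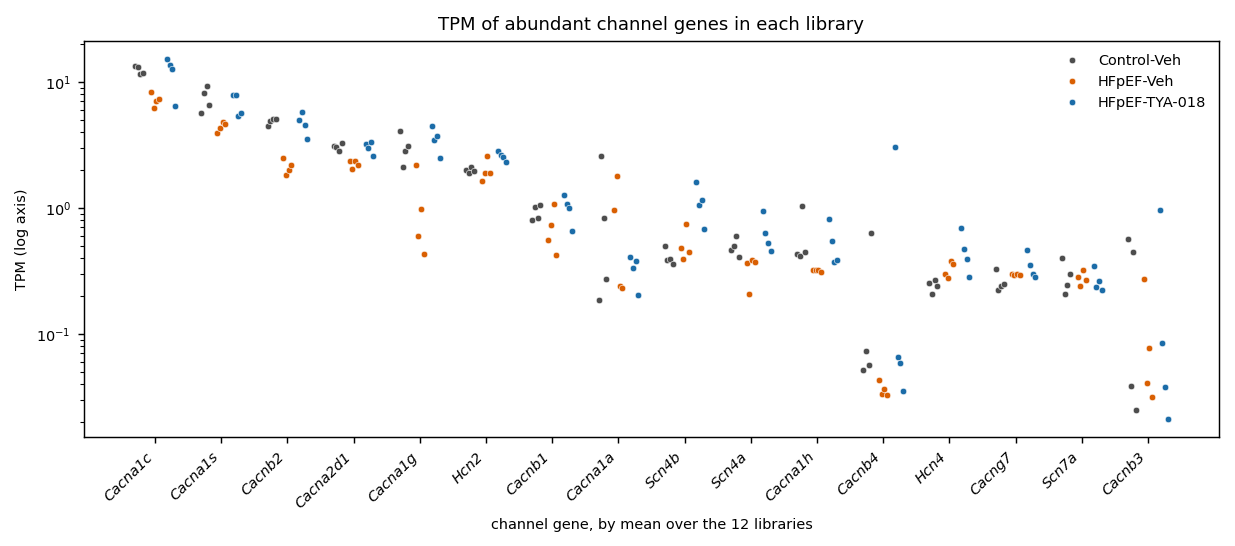
TPM (log axis) of 16 abundant channel genes, with a point for each library, coloured by group. Cacna1c leads in every group, with means of 12.4, 7.25 and 11.98 TPM, and Cacnb2 falls to 2.13 TPM in HFpEF-Veh between means of 4.86 and 4.72.

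A few genes made up most of the level of their class. Cacna2d1 made up 97.9%, 97.8% and 97.2% of the summed TPM of the alpha2delta subunits in the 3 groups, and Cacnb2 made up 77.8%, 72.0% and 73.8% of the calcium channel beta subunits. The L-type pores divided by TPM into Cacna1c (62.9%, 62.1% and 63.2%) and Cacna1s (37.1%, 37.9% and 36.7%). Hcn2 made up 88.1%, 83.9% and 84.6% of the pacemaker genes and Hcn4 10.8%, 14.1% and 14.6%. Of the sodium beta subunits, Scn4b made up 37.3%, 41.8% and 47.0%. By CPM, which is not scaled by length, Scn4b made up 74.1%, 77.6% and 82.0% of its class, and Hcn4 33.5%, 41.1% and 39.8%. Cacna1s made up only 6.66%, 5.91% and 6.55% of the L-type pores by CPM. Among the gamma subunits, Cacng6 had 37.6%, 15.9% and 31.6% of the TPM, while Cacng4 had 2.07%, 10.98% and 2.73%.

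The first comparison, HFpEF-Veh against Control-Veh, asks how the disease model differs from the healthy ventricle. Here 12 of the 31 tested channel genes were called at an adjusted p under 0.05 (38.7%), against 21.2% of all genes tested. There were 8 lower and 4 higher, against a background of 10.3% of all genes lower and 10.9% higher. The lower genes were Cacna1c, Cacna1g, Cacna1h, Cacna1s, Cacna2d2, Cacnb2, Cacng6 and Scn10a, so that all but 1 were calcium channel genes. The higher genes were Cacng4, Hcn4, Scn3b and Scn4b. Of the 12, Cacng4 and Scn10a passed the filter through the groups where they were high, as described further on. The median log2 fold change of the 31 was -0.11, against -0.01 over all genes.

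The second comparison, HFpEF-TYA-018 against HFpEF-Veh, asks what the drug changed in the model. It called 11 of 31 (35.5%), against 19.3% of all genes tested. There were 7 higher, among them Cacna1g, Cacna1s, Cacnb2, Cacng6, Scn10a and Scn4b, against 8.93% of all genes, and 4 lower (Cacng4, Cacng7, Scn3a and Scn7a), against 10.4%. Cacng4 and Scn10a, which passed the filter through the groups where they were high, are again among the calls. The median was 0.17, against 0.00 over all genes. It shares its HFpEF-Veh libraries with the first comparison, so these comparisons are not independent.

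The third comparison, HFpEF-TYA-018 against Control-Veh, called 4 of 31 (12.9%), against 5.86% of all genes. Scn4b and Hcn4 were higher, against 3.12% of all genes, and Scn3a and Scn7a lower, against 2.74%. The median was -0.15, against -0.02. In all, 16 channel genes were called in at least 1 comparison and 10 in at least 2. Of the 27 calls over the 3 comparisons, 9 were also made when the deposited effective lengths entered the model as an offset, and this is given for each gene.

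**Figure D2:**
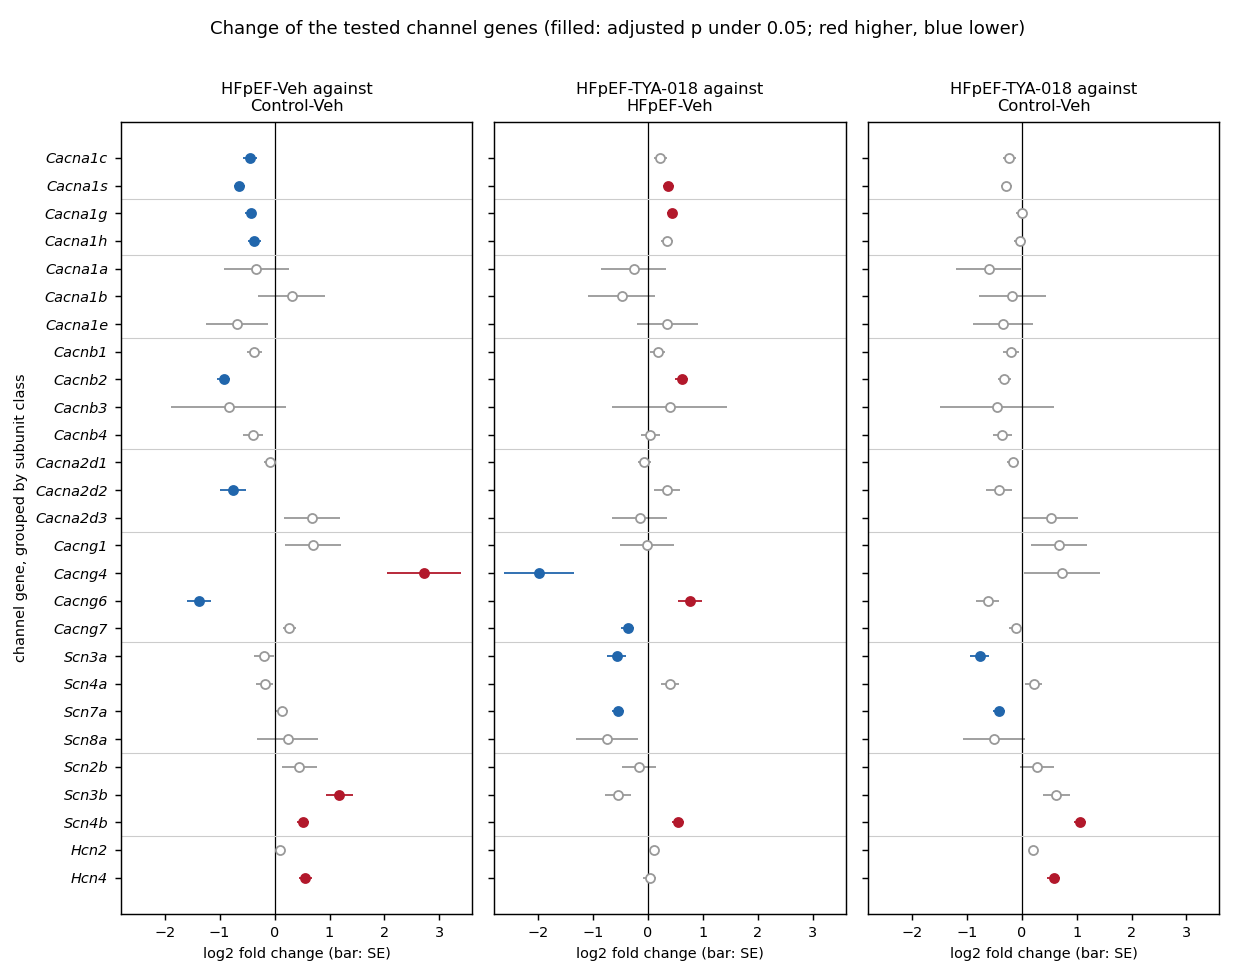
Log2 fold change with its standard error for 27 tested channel genes in the 3 comparisons (Scn10a, at 0 in every HFpEF-Veh library, is left out). Filled points passed the test, red for higher and blue for lower; the calcium channel genes Cacnb2, Cacna1s, Cacna1g and Cacng6 are blue in the first panel and red in the second, while Scn4b is red in all 3.

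The pore of the cardiac L-type channel, Cacna1c (ENSMUSG00000051331.15, GRCm38 chromosome 6, 118587240 to 119196418, minus strand), was measured at 199.8, 203, 193 and 203 CPM in Control-Veh. It was at 166, 125, 132 and 164 CPM in HFpEF-Veh and at 169, 191, 192 and 132 CPM in HFpEF-TYA-018. All HFpEF-Veh libraries lay below all Control-Veh libraries, and 3 of 4 HFpEF-TYA-018 libraries lay above all HFpEF-Veh libraries. In HFpEF-Veh against Control-Veh, Cacna1c was lower (log2 fold change -0.45, SE 0.12, adjusted p = 0.0227), and with lengths as offset it was still called (adjusted p = 0.0427). The call was lost when C2, C4, V2 or V3 was left out (highest adjusted p = 0.0680). With limma on log2(TPM + 1) Cacna1c was lower but not called (-0.70, adjusted p = 0.104), nor was it called on the other TPM scales. It was not called in HFpEF-TYA-018 against HFpEF-Veh (0.22, adjusted p = 0.225) or against Control-Veh (-0.22, adjusted p = 0.306), although the libraries of the last pair did not overlap. Cacna1c shares no 50-base stretch with any other annotated gene.

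Cacna1s, the L-type pore best known from skeletal muscle (chromosome 1, 136052750 to 136119822, plus strand), followed the same order. Its values were 11.7, 15.9, 16.4 and 13.1 CPM in Control-Veh, 8.75, 8.53, 9.31 and 9.81 in HFpEF-Veh, and 11.62, 11.997, 11.55 and 11.80 in HFpEF-TYA-018. The HFpEF-Veh libraries overlapped with neither other group. Cacna1s was lower in HFpEF-Veh against Control-Veh (-0.65, SE 0.10, adjusted p = 0.00157) and higher in HFpEF-TYA-018 against HFpEF-Veh (0.37, SE 0.10, adjusted p = 0.0251). With lengths as offset neither call was made (adjusted p = 0.0805 and 0.647), and the second was also lost when T1, T2, V1 or V2 was left out. With limma on log2(TPM + 1) neither was called (adjusted p = 0.0813 and 0.0538). Of its 50-base stretches, 16.3% are shared with the antisense gene Gm37759, and reads of both could not be told apart if strand was not used, which was not stated. Skeletal muscle markers summed to 1.85 to 2.62, 1.49 to 25.7 and 1.86 to 2.48 CPM in the 3 groups. The 25.7 CPM was in V2, against 1.49 to 3.14 in the other HFpEF-Veh libraries. Of 8 markers, 4 were tested. In HFpEF-Veh against Control-Veh 3 were higher and 1 lower (median log2 fold change 1.15), with 0 called, against 21.2% of all genes. Atp2a1 went from 0.418 to 2.17 CPM. Myh1 and Myh2 were under 0.1 CPM in the mean over the 12 libraries. The part of these markers in the Cacna1s result was not tested. The other L-type pores, Cacna1d and Cacna1f, did not pass the filter.

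The cytoplasmic beta subunit Cacnb2 (ENSMUSG00000057914.15, chromosome 2, 14603088 to 14987908, plus strand), which brings the L-type pore to the membrane and tunes its gating, was lower in the model and higher again after the dose. It was at 36.9, 45.2, 48.3 and 43.7 CPM in Control-Veh, 26.1, 20.1, 21.3 and 24.1 in HFpEF-Veh and 29.5, 41.0, 37.6 and 31.8 in HFpEF-TYA-018. Group means were 43.5 ± 4.82, 22.9 ± 2.71 and 35.0 ± 5.28 CPM. Every HFpEF-Veh library lay below every library of the other 2 groups. Cacnb2 was lower in HFpEF-Veh against Control-Veh, at 0.526 of its level (-0.93, SE 0.12, adjusted p = 0.000720), and 1.53-fold higher in HFpEF-TYA-018 against HFpEF-Veh (0.61, SE 0.12, adjusted p = 0.00584). Both calls, alone among the 27, were made under all 9 other settings, the offset included (adjusted p = 0.00475 and 0.0211), and without any 1 library. HFpEF-TYA-018 against Control-Veh was not called (-0.32, adjusted p = 0.137), and these libraries overlapped. Of its 50-base stretches, 5.90% are shared, mostly with Gm10849. The promoter stretch printed above for Cacnb2 is the one before its second start, and the counts do not show which start was used. The other beta subunits, Cacnb1, Cacnb3 and Cacnb4, were not called in any comparison.

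**Figure D3:**
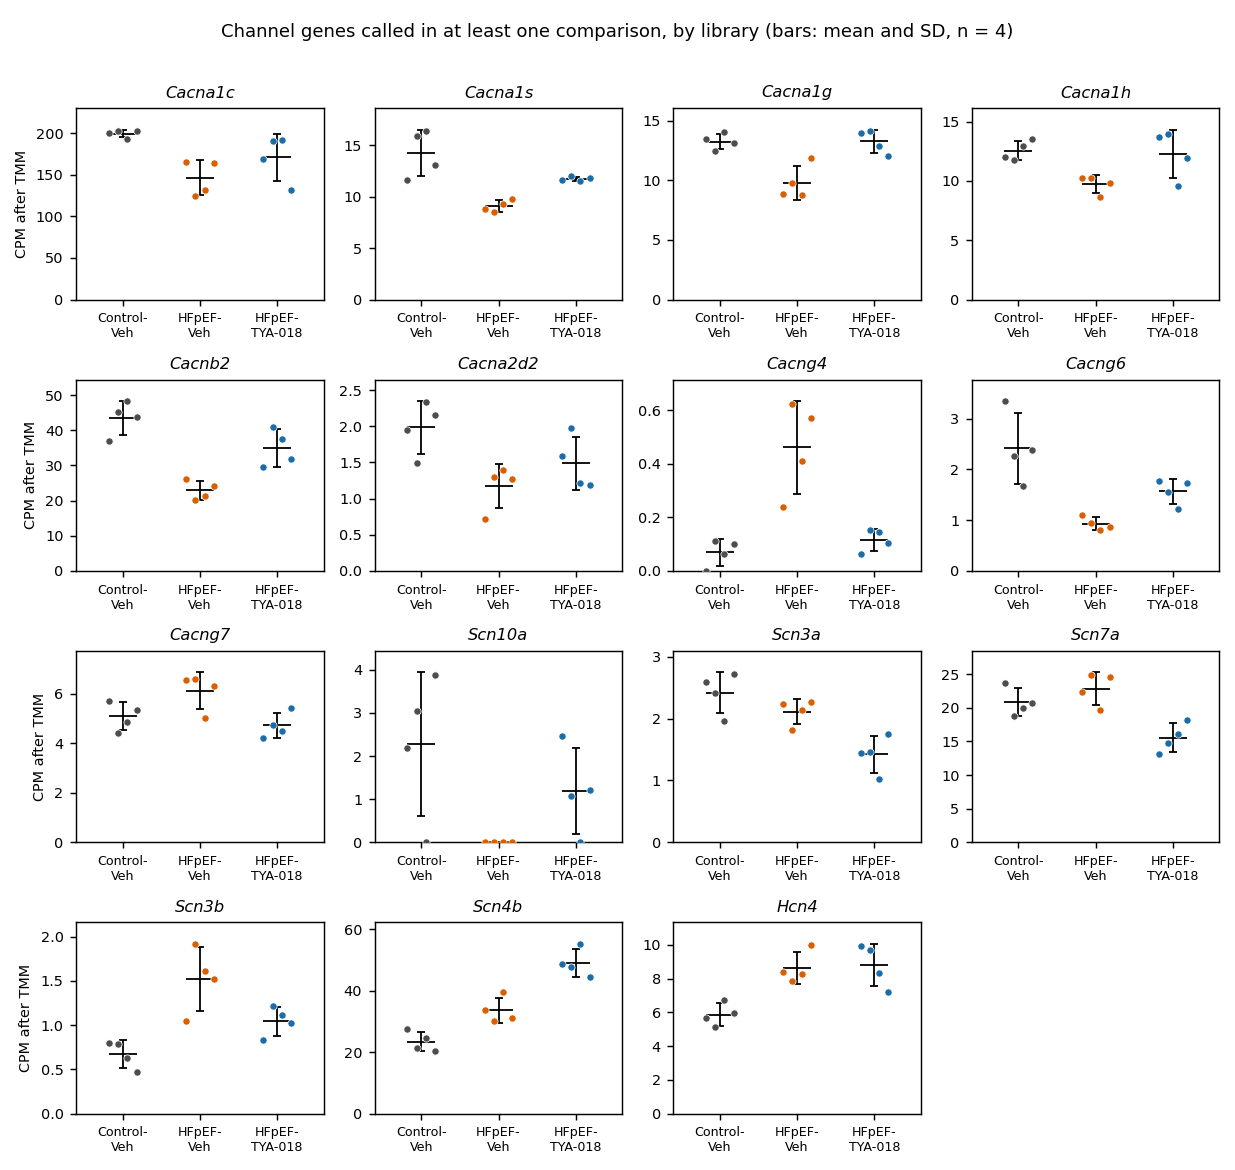
CPM in each library for 15 channel genes called in at least 1 comparison, with the mean and SD of each group of 4. Cacnb2, Cacna1s, Cacna1g and Cacng6 dip in HFpEF-Veh without overlap with either other group, Scn4b steps up from 23.4 to 33.6 to 48.9 CPM, and Scn10a is at 0 in all 4 HFpEF-Veh libraries and in C3 and T3.

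The alpha2delta subunits assist channel trafficking. Cacna2d1, the main one, was at 78.0, 77.5, 79.9 and 83.97 CPM in Control-Veh, 72.7, 70.6, 73.9 and 83.7 in HFpEF-Veh and 53.5, 72.2, 82.2 and 79.2 in HFpEF-TYA-018. These groups overlapped, and the log2 fold changes of -0.09, -0.07 and -0.15 were not called (adjusted p = 0.625, 0.713 and 0.459). Its direction in HFpEF-TYA-018 against HFpEF-Veh depended on the scale: on log2(TPM + 1) it was higher and called (0.32, adjusted p = 0.0445), on a scale where the median of all genes was shifted by 0.17. Cacna2d2 was at 1.95, 1.49, 2.33 and 2.16 CPM in Control-Veh, 0.722, 1.30, 1.40 and 1.27 in HFpEF-Veh and 1.58, 1.97, 1.21 and 1.19 in HFpEF-TYA-018. It was lower in HFpEF-Veh against Control-Veh, with no overlap of these libraries (-0.76, SE 0.24, adjusted p = 0.0444). That call was lost under the offset (adjusted p = 0.125) and without any of 7 of the 8 libraries (each but C2). Limma did not make it on any TPM scale (adjusted p = 0.368 on log2(TPM + 1)). Cacna2d3 was not called and Cacna2d4 did not pass the filter.

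Both T-type pores were lower in HFpEF-Veh. Cacna1g (chromosome 11, 94408391 to 94474198, minus strand) was at 13.4, 12.5, 14.0 and 13.1 CPM in Control-Veh, 8.85, 9.76, 8.81 and 11.9 in HFpEF-Veh and 14.0, 14.1, 12.9 and 12.03 in HFpEF-TYA-018. The HFpEF-Veh libraries lay below both other groups, which overlapped with each other. Cacna1g was lower in HFpEF-Veh against Control-Veh (-0.43, SE 0.10, adjusted p = 0.00918) and higher in HFpEF-TYA-018 against HFpEF-Veh (0.43, SE 0.10, adjusted p = 0.0100), with a difference of 0.00 between HFpEF-TYA-018 and Control-Veh (adjusted p = 0.995). Neither call depended on a single library, and the offset moved them to adjusted p = 0.0526 and 0.0602. With limma on log2(TPM + 1) the first was not called and the second was (adjusted p = 0.0649 and 0.0254). Cacna1h (chromosome 17, 25374285 to 25433783, minus strand) was at 11.99, 11.8, 12.9 and 13.5, then 10.2, 10.3, 8.61 and 9.84, then 13.7, 14.0, 9.61 and 11.9 CPM. It was lower in HFpEF-Veh against Control-Veh without overlap (-0.37, SE 0.11, adjusted p = 0.0365), a call lost under the offset (adjusted p = 0.165) and without any of 7 of the 8 libraries (each but C1). Limma did not make that call on any TPM scale (adjusted p = 0.267 on log2(TPM + 1)). In HFpEF-TYA-018 against HFpEF-Veh it did not pass (0.34, adjusted p = 0.0524), with T3 inside the HFpEF-Veh range. Cacna1i did not pass the filter.

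The P/Q-, N- and R-type pores, which drive transmitter release in neurons, were low and gave 0 calls with edgeR in each comparison, 0 also at an unadjusted p under 0.05. Cacna1a, the most abundant of them, was at 1.06, 1.29, 1.54 and 0.333, then 0.404, 0.317, 1.22 and 1.43, then 1.28, 0.689, 0.520 and 0.278 CPM, so the spread inside each group exceeded the differences between group means. Its log2 fold changes were -0.33, -0.26 and -0.60 (adjusted p = 0.728, 0.795 and 0.604).

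The gamma subunits were low. Of the 4 tested, 2, 3 and 0 were called in the 3 comparisons, against 21.2%, 19.3% and 5.86% of all genes. Cacng6 (chromosome 7, 3424195 to 3435667, plus strand), known to dampen T-type current, was at 3.35, 2.26, 1.67 and 2.38 CPM in Control-Veh, 1.10, 0.944, 0.805 and 0.868 in HFpEF-Veh and 1.77, 1.56, 1.23 and 1.73 in HFpEF-TYA-018. The HFpEF-Veh libraries were below all others. Cacng6 was lower in HFpEF-Veh against Control-Veh, at 0.385 of its level (-1.38, SE 0.22, adjusted p = 0.00168), and 1.69-fold higher in HFpEF-TYA-018 against HFpEF-Veh (0.76, SE 0.22, adjusted p = 0.0303). The first call held without any 1 library and the second was lost without T1, T2, T4, V2, V3 or V4. Under the offset neither passed (adjusted p = 0.0585 and 0.0958). With limma on log2(TPM + 1) the first was not called and the second was (adjusted p = 0.148 and 0.0489). On the other TPM scales the first was not called either, and the second was lost when rescaled without mitochondrial genes.

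Its neighbour on the chromosome, Cacng7 (3332955 to 3368221, plus strand), moved the other way. It was at 5.71, 4.43, 4.85 and 5.35, then 6.53, 6.59, 5.01 and 6.32, then 4.22, 4.74, 4.47 and 5.41 CPM, and the groups overlapped. It was called lower only in HFpEF-TYA-018 against HFpEF-Veh (-0.38, SE 0.12, adjusted p = 0.0470), lost under the offset (adjusted p = 0.248) and without T1, T2, T3, V1, V2 or V4, and the sign turned on both scales of log2(TPM) that were not rescaled. Cacng4 (chromosome 11, 107732357 to 107794557, minus strand) rested on few reads, with rounded counts of 0, 7, 4 and 7 in Control-Veh, 14, 37, 27 and 33 in HFpEF-Veh and 6, 10, 10 and 7 in HFpEF-TYA-018. All HFpEF-Veh libraries were above all others, and only there did all 4 libraries reach 10 counts, the level that the filter works from, so Cacng4 was tested because of the group where it was high. It was higher in HFpEF-Veh against Control-Veh (2.72, SE 0.67, adjusted p = 0.0146; offset 0.0328) and lower in HFpEF-TYA-018 against HFpEF-Veh (-1.98, SE 0.64, adjusted p = 0.0468), the latter lost without any 1 of the 8 libraries, under the offset (adjusted p = 0.0772) and with no filter (adjusted p = 0.0777).

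Scn10a, the sodium channel pore Nav1.8 of sensory neurons (chromosome 9, 119608456 to 119719322, minus strand), was listed at 0 in all 4 HFpEF-Veh libraries and also in C3 and T3. The other Control-Veh libraries had 2.18, 3.04 and 3.88 CPM and the other HFpEF-TYA-018 libraries 2.46, 1.08 and 1.22. Against the level of 3 counts per library, it was at least 45.5-fold lower in HFpEF-Veh than the mean of Control-Veh and at least 23.8-fold higher in HFpEF-TYA-018 than in HFpEF-Veh, with 1 library at 0 in each of the higher groups. Both contrasts were called (adjusted p = 0.0219 and 0.0364). However, the gene passed the count filter through libraries of Control-Veh and HFpEF-TYA-018 alone, so the calls rest on the groups that brought it into the test. With only the 2 groups compared it did not pass the filter in either contrast, and on log2(TPM + 1) neither was called (adjusted p = 0.166 and 0.163), nor on the other TPM scales. With the offset the first kept its call and the second did not (adjusted p = 0.0440 and 0.0651), and the second was lost without any of 7 of the 8 libraries (each but T3). The counts were fractional, as in an estimate that divides reads among transcripts, and 1.66% of its 50-base stretches are shared with another annotated gene, and the part of read assignment in this pattern was not tested. Neuronal markers summed to 8.76 to 13.7, 13.001 to 14.6 and 10.3 to 11.4 CPM. Th and Chrna3 were at 0 in every library, whereas Stmn2 had group means of 8.03, 10.6 and 7.63 CPM. Of 4 tested, 0 were called in HFpEF-Veh against Control-Veh, against 21.2% of all genes. In HFpEF-TYA-018 against HFpEF-Veh, Stmn2 alone was called (-0.48, adjusted p = 0.0320), or 25%, against 19.3%. The part of these markers in the Scn10a result was not tested.

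Scn7a and Scn3a were lower in the treated group. Scn7a (chromosome 2, 66673425 to 66784914, minus strand) encodes Nax, a sodium-sensing relative of the voltage-gated pores, and is known from glia and other non-excitable cells. It was at 23.7, 18.8, 20.0 and 20.7 CPM in Control-Veh, 22.3, 24.9, 19.7 and 24.5 in HFpEF-Veh and 13.2, 14.7, 16.2 and 18.2 in HFpEF-TYA-018. The treated libraries were below all libraries of both other groups, which overlapped with each other. Scn7a was lower against HFpEF-Veh (-0.55, SE 0.11, adjusted p = 0.00619) and against Control-Veh (-0.42, SE 0.11, adjusted p = 0.0460). The first call held without any 1 library, the second was lost without any of 7 of the 8 (each but T4), and neither passed under the offset (adjusted p = 0.0579 and 0.259). With limma on log2(TPM + 1) neither was called (-0.015, adjusted p = 0.835; -0.023, adjusted p = 0.816), nor on the other TPM scales. Its mean TPM was 0.287, 0.278 and 0.266 in the 3 groups. Schwann cell markers summed to 15.8 to 23.0, 17.7 to 22.5 and 14.4 to 19.0 CPM.

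Scn3a (chromosome 2, 65457118 to 65567627, minus strand), a neuronal and developmental pore, was at 2.58, 2.41, 1.95 and 2.71, then 2.23, 1.82, 2.14 and 2.26, then 1.45, 1.46, 1.02 and 1.75 CPM. The treated libraries again lay below all others. It was lower against HFpEF-Veh (-0.57, SE 0.18, adjusted p = 0.0413) and against Control-Veh (-0.77, SE 0.18, adjusted p = 0.0296). Each call was lost under the offset (adjusted p = 0.0941 and 0.345) and without any of 6 of the 8 libraries (the first held without T4 or V2, the second without C3 or T4). Neither was called with limma on log2(TPM + 1) (-0.055, adjusted p = 0.335; -0.036, adjusted p = 0.663) or on the other TPM scales. Of its 50-base stretches, 6.49% are shared with other genes, among them Scn2a, Scn9a and Scn1a, so its value is uncertain. Scn4a and Scn8a were tested and not called, and Scn1a, Scn9a and Scn11a did not pass the filter.

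Scn4b, the sodium channel beta4 subunit, which is bound to the pore through a disulfide bond and promotes resurgent current, was the channel gene whose 3 groups were all separate. The gene (ENSMUSG00000046480.6) lies on chromosome 9 from 45138395 to 45154152 on the plus strand. It was at 27.4, 21.4, 24.7 and 20.3 CPM in Control-Veh, 33.5, 30.1, 39.4 and 31.2 in HFpEF-Veh and 48.5, 47.7, 55.2 and 44.3 in HFpEF-TYA-018, with means of 23.4 ± 3.21, 33.6 ± 4.15 and 48.9 ± 4.57. No library of a group overlapped with another group. In HFpEF-Veh it was 1.43-fold above Control-Veh (0.52, SE 0.11, adjusted p = 0.00713), and the treated group was 1.46-fold above HFpEF-Veh (0.54, SE 0.11, adjusted p = 0.00658) and 2.09-fold above Control-Veh (1.06, SE 0.11, adjusted p = 0.000813). The treated libraries thus lay farther from Control-Veh than the HFpEF-Veh libraries did. All 3 calls were made with lengths as offset (adjusted p = 0.0498, 0.0265 and 0.00848) and without any 1 library, and on log2(TPM + 1) only that against HFpEF-Veh was called (adjusted p = 0.652, 0.0308 and 0.111). Scn4b shares no 50-base stretch with another gene.

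The other beta subunits differed from Scn4b. Scn3b (chromosome 9, 40269217 to 40291618, plus strand) was at 0.800, 0.792, 0.631 and 0.467 CPM in Control-Veh, 1.05, 1.92, 1.61 and 1.53 in HFpEF-Veh and 0.828, 1.22, 1.11 and 1.03 in HFpEF-TYA-018. Both HFpEF groups lay above Control-Veh without overlap. It was 2.27-fold higher in HFpEF-Veh against Control-Veh (1.18, SE 0.24, adjusted p = 0.00597), without reliance on a single library, but not under the offset (adjusted p = 0.808), where its assigned length in C4 was 1139 bases against at least 5427 in the other Control-Veh libraries. With limma on log2(TPM + 1) that call was not made (0.0015, adjusted p = 0.993), nor on the other TPM scales. HFpEF-TYA-018 against HFpEF-Veh (-0.55, adjusted p = 0.128) and against Control-Veh (0.63, adjusted p = 0.143) were not called. Scn2b was tested and not called.

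Among the pacemaker genes, Hcn4 was higher in both HFpEF groups and Hcn2 was not called. Hcn4 (ENSMUSG00000032338.9, chromosome 9, 58823412 to 58863175, plus strand) was at 5.64, 5.12, 6.72 and 5.98 CPM in Control-Veh, 8.41, 7.89, 8.26 and 10.00 in HFpEF-Veh and 9.95, 9.69, 8.35 and 7.22 in HFpEF-TYA-018. All libraries of both HFpEF groups were above all Control-Veh libraries, and the HFpEF groups overlapped. It was 1.47-fold higher in HFpEF-Veh (0.56, SE 0.12, adjusted p = 0.00811) and also higher in HFpEF-TYA-018 (0.59, SE 0.12, adjusted p = 0.0190), each against Control-Veh. Between both HFpEF groups the difference was 0.03 (SE 0.12, adjusted p = 0.899). With the offset the first call was made and the second was not (adjusted p = 0.0176 and 0.0582), and the second was lost without C4, T1 or T2. With limma on log2(TPM + 1) neither was called (0.095, adjusted p = 0.452; 0.22, adjusted p = 0.211), nor on the other TPM scales.

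Hcn2 (chromosome 10, 79716634 to 79736108, plus strand), the main ventricular form here, was at 11.6, 10.2, 11.9 and 11.3, then 11.8, 12.04, 12.8 and 11.5, then 11.3, 12.9, 13.6 and 13.9 CPM. The groups overlapped, with log2 fold changes of 0.10, 0.11 and 0.20 (SE 0.08 each, adjusted p = 0.400, 0.370 and 0.146). Both promoter stretches printed above are rich in GC, and of the pair Hcn4 alone was called. Hcn3 did not pass the filter. Conduction system markers summed to 42.3 to 45.8, 51.1 to 56.4 and 41.0 to 46.0 CPM in the 3 groups. Of the 6, 5 were tested, and Isl1 was under 0.1 CPM in every group mean. In HFpEF-Veh against Control-Veh, Tbx3 alone was called (20% of those tested, against 21.2% of all genes). By direction 3 of the 5 were higher and 2 lower. Tbx3 went from 14.9 to 24.9 CPM, Cntn2 from 6.38 to 4.72 and Gja5 from 7.71 to 7.20, so the sum does not stand for every marker. In HFpEF-TYA-018 against HFpEF-Veh, Gjc1 and Tbx3 were lower (40%, against 19.3% of all genes). The part of these markers in the Hcn4 result was not tested.

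**Figure D4:**
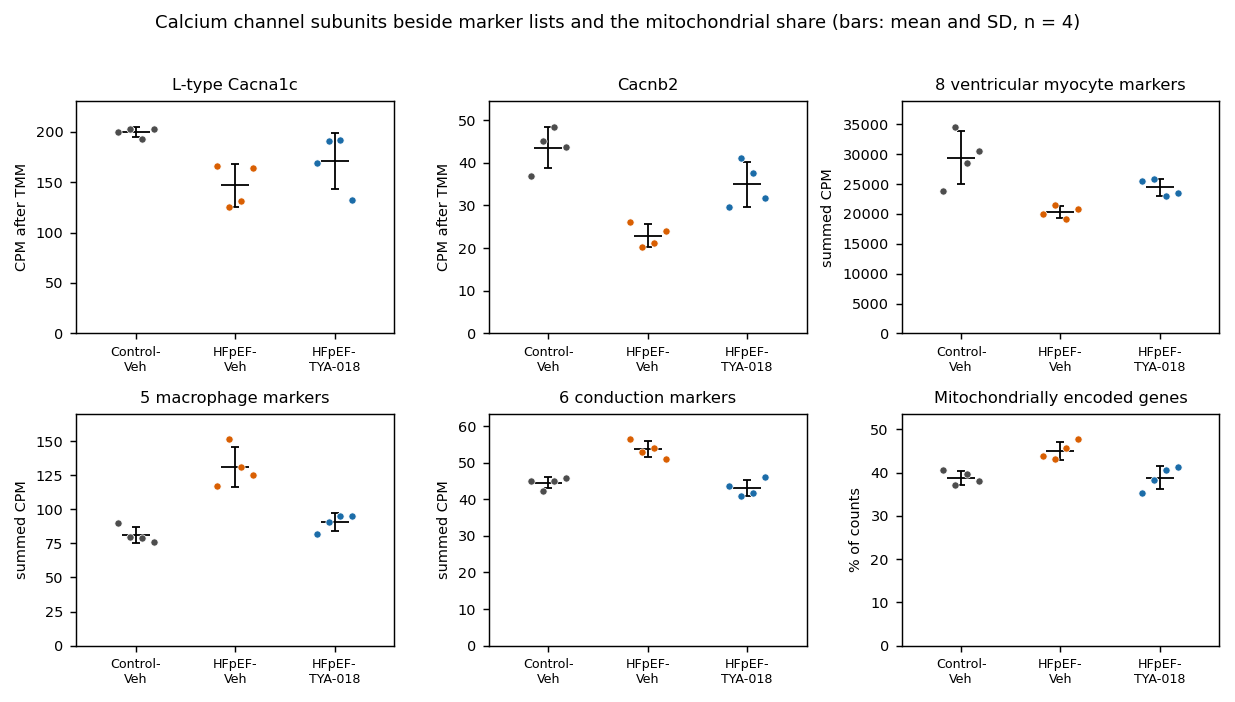
CPM by library of Cacna1c and Cacnb2, the summed CPM of 8 ventricular myocyte, 5 macrophage and 6 conduction markers, and the percentage of counts from mitochondrially encoded genes. In HFpEF-Veh the ventricular sum is at its lowest (19214 to 21471 CPM) and the macrophage sum (117 to 151 CPM) and the mitochondrial share (43.1% to 47.7%) are at their highest.

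The 15 tested genes that were called in no comparison had log2 fold changes from -0.84 to 0.70 in HFpEF-Veh against Control-Veh, from -0.74 to 0.40 in HFpEF-TYA-018 against HFpEF-Veh and from -0.60 to 0.67 in HFpEF-TYA-018 against Control-Veh. Their smallest adjusted p values were 0.0784, 0.0950 and 0.146. The 12 genes under the filter never exceeded 0.293 CPM, with 64 of their 144 values at 0 and at most 21.6 counts, in Cacna1d, so differences between groups were not detectable for them at this depth.

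The effective length that salmon gave to a channel gene varied between libraries, and this bears on both TPM and the offset. For Cacna1s it was 575 to 819 bases, against an annotated transcript of up to 6251 bases, so that its TPM is high for its counts. By CPM it made up 6.66%, 5.91% and 6.55% of the L-type pores, far under its share of TPM. For Cacna1g the length was 1220 to 1968 bases in Control-Veh and 1281, 5079, 3147 and 8069 bases in HFpEF-Veh, so a TPM of 3.03 ± 0.828 in Control-Veh against 1.05 ± 0.797 in HFpEF-Veh carries a difference in length as well as in counts. For Cacnb2 it was 2683 to 3716 bases in all libraries (longest transcript 5030) and for Cacna1c 5195 to 6619 (13162), which is a smaller spread. Scn4b and Scn7a, each with 1 annotated transcript, were given 15118 to 23840 and 19312 to 32361 bases. These lengths lie above the 4982 and 7338 bases of those transcripts. For the genes with several annotated transcripts, a change in the transcripts used and an unstable estimate of length cannot be told apart in these gene tables.

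**Figure D5:**
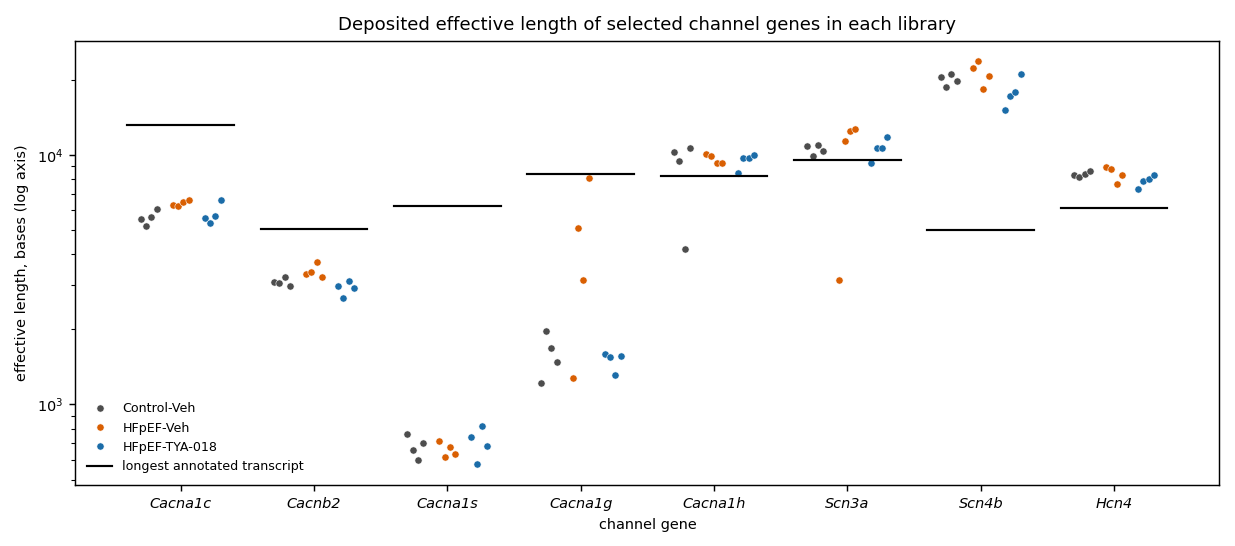
Effective length in bases (log axis) of 8 channel genes in each library, with the longest annotated transcript as a line. Cacna1g is spread from 1220 to 8069 bases and Cacna1s stays at 575 to 819, under its longest transcript of 6251, whereas Scn4b stays above its own of 4982.

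Genes whose products bind or control these channels were examined from a list of 46, of which 43 were tested. In HFpEF-Veh against Control-Veh 13 were called (5 higher, 8 lower), in HFpEF-TYA-018 against HFpEF-Veh 9 (5 higher, 4 lower) and in HFpEF-TYA-018 against Control-Veh 3 (2 higher, 1 lower). These are 30.2%, 20.9% and 6.98% of the 43, against 21.2%, 19.3% and 5.86% of all genes tested, so the last pair of shares lies near that of all genes. The 15 partners of sodium channels had 8, 5 and 1 calls, of which 7 were lower in the first comparison and 4 higher in the second, with medians of -0.25 and 0.13. The calls are 53.3%, 33.3% and 6.67% of the 15, the last near the 5.86% of all genes. Ank2, which encodes the anchoring protein ankyrin-B, fell from 59.2 ± 4.65 to 43.3 ± 4.48 CPM in HFpEF-Veh (-0.45, adjusted p = 0.00257) and was at 51.1 ± 1.75 in HFpEF-TYA-018 (0.24, adjusted p = 0.0491). Fgf13, an intracellular modulator of sodium channel inactivation, fell from 20.4 ± 1.33 to 15.6 ± 0.946 (-0.39, adjusted p = 0.00308) and was at 18.3 ± 1.11 after treatment (0.23, adjusted p = 0.0371). Its relative Fgf14 was under 0.4 CPM in every group mean and showed the same directions (-1.17, adjusted p = 0.0469; 1.46, adjusted p = 0.0206). Every library of Control-Veh and HFpEF-TYA-018 had at least 0.210 CPM of Fgf14, against 0.087 to 0.189 in HFpEF-Veh. Fgf14 thus passed the filter through the groups where it was high, and it adds no separate support to Fgf13.

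At the intercalated disc, where sodium channels are concentrated, Gja1 (connexin 43) was at 116 ± 8.89, 89.2 ± 9.46 and 124 ± 8.48 CPM in the 3 groups (-0.38, adjusted p = 0.0091; 0.48, adjusted p = 0.00392). Pkp2, a desmosomal protein, was lower in HFpEF-Veh (-0.25, adjusted p = 0.0151), as was Nedd4l, a ubiquitin ligase that acts on ion channels (-0.69, adjusted p = 0.00657). Both were called in the first comparison alone.

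The 16 calcium channel partners, 15 of them tested, had 3, 3 and 2 calls, or 20.0%, 20.0% and 13.3%, the first pair near the 21.2% and 19.3% of all genes. Calm3, a gene for the calcium sensor calmodulin, was higher in HFpEF-Veh (0.27, adjusted p = 0.00988). Prkaca, the catalytic subunit of protein kinase A, was higher in HFpEF-TYA-018 against HFpEF-Veh (0.34, adjusted p = 0.0131), and Jph2, which holds the L-type channel close to the sarcoplasmic reticulum, was higher against Control-Veh (0.45, adjusted p = 0.0133).

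The 4 partners of HCN channels, 3 of them tested, gave 0 calls with edgeR in each comparison, and 0 at an unadjusted p under 0.05. Of 11 transcription regulators, 10 tested, 2 were called in HFpEF-Veh against Control-Veh (20.0%, against 21.2% of all genes). They were Tbx3, a repressor that marks the conduction system, at 14.9 ± 0.643, 24.9 ± 1.99 and 15.3 ± 2.98 CPM (0.74, adjusted p = 0.00169; -0.71, adjusted p = 0.00285), and Foxo1, a forkhead factor (0.39, adjusted p = 0.00894). Of 15 clock genes, 6 were called in HFpEF-Veh against Control-Veh (Nfil3 higher; Per3, Nr1d2, Dbp, Tef and Hlf lower), 3 in HFpEF-TYA-018 against HFpEF-Veh and 1 in HFpEF-TYA-018 against Control-Veh. These are 40.0%, 20.0% and 6.67%, against 21.2%, 19.3% and 5.86% of all genes, so that the first share alone lies away from that of all genes. Time of collection was not given in the labels, and its part in the channel results was not tested.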

How the data were processed

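Left ventricular RNA from 12 mice in 3 groups of 4 was sequenced after poly(A) selection with a stranded kit, and groups were taken from the sample labels. The authors estimated transcript levels with Salmon 1.6.0 and summed them per gene. They deposited 3 tables: an estimated count per gene, not normalised and fractional where reads fit several transcripts, the TPM, and another kind of value, the effective length in bases. The labels and the published methods differ in read length and layout, and the strand setting of the counting was not given in the sources used here. All value columns were used (0 were left out).

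After rounding, edgeR 4.0.16 (R 4.3.3) tested these counts (filterByExpr by group, TMM scaling, quasi-likelihood F test, 1 model over 12 libraries, 9 residual degrees of freedom, common coefficient of variation 0.232). The 14333 genes kept held 99.98% of counts. A call needed an adjusted p (Benjamini-Hochberg, over all of these genes) under 0.05. Fold changes in log2 have a standard error taken from the F statistic, and folds are these values taken off the log scale. A fold against a group at 0 is a ratio of mean CPM. Group measures of libraries were compared with exact permutation tests. Where a group was at 0, its level was set to 3 counts per library. The script was checked on simulated counts.

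Library values were given for channel genes called in at least 1 comparison and for the gene with the highest mean TPM of each subunit class. Some genes that this would name are not reported here, though counts over the channel genes include them. Of partners and regulators, at most the 12 with the smallest adjusted p were named. The channel genes and all lists were chosen with earlier results of these data known. With 1 library per mouse, p-values measure the spread between mice. Alternatives were 9 other settings (DESeq2 1.42.0, its size factors, no filter, pairwise fits, mitochondrial genes left out, lengths as offset, and limma 3.58.1 on log2(TPM + 1), the same rescaled without mitochondrial genes, and log2(TPM + 0.1)) and 12 fits that each left out 1 library. Shared 50-base stretches and coordinates are from the GENCODE M21 annotation of GRCm38.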

Additional observations from a re-analysis of the deposited data

How the results depend on the processing

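No paired analysis was possible because the animals of the groups had different numbers. The counts of channel genes called (12 with 4 higher and 8 lower in HFpEF-Veh against Control-Veh, 11 with 7 and 4 in HFpEF-TYA-018 against HFpEF-Veh, 4 with 2 and 2 in HFpEF-TYA-018 against Control-Veh) stayed within 1.5 times under DESeq2, its size factors and without mitochondrial genes. With lengths as offset they were 6 (3 lower), 2 (2 higher, 0 lower) and 1 (1 higher, 0 lower). Of all 14333 genes tested, 1445, 1217 and 203 were called with the offset, against 3033, 2767 and 840 in the main test. In HFpEF-TYA-018 against HFpEF-Veh the channel share was then below that of all genes. On log2(TPM + 0.1) they were 3 (1 higher, 2 lower), 8 (1 lower) and 0 (0 and 0), beside 301, 2618 and 11 calls over all 14333 genes. On log2(TPM + 1) they were 1 (0 higher, 1 lower), 7 (1 lower) and 0 (0 and 0), and rescaled without mitochondrial genes 2 (1 and 1), 3 (2 higher, 1 lower) and 0 (0 and 0). At an unadjusted p under 0.05 the 3 totals of 0 from limma were 4, 6 and 3. The median of all genes shifted by -0.07, 0.17 and 0.08 on log2(TPM + 1) and by -0.17, 0.34 and 0.17 on log2(TPM + 0.1). The last 2 comparisons gave 7 (1 lower) and 2 (0 lower) with no filter, and 7 (2 lower) and 2 (0 lower) with only the 2 groups compared. With no filter, 43 channel genes were tested, and 2205 and 588 of 20674 genes were called. With only the 2 groups compared, 29 channel genes were tested, and 2929 of 13896 and 568 of 14046 genes were called. Without 1 library at a time the comparisons gave 9 to 11 (4 to 4 higher, 5 to 7 lower), 4 to 9 (3 to 7, 1 to 3) and 1 to 4 (1 to 2, 0 to 2). Over all genes those fits called 1986 to 3992, 1485 to 2729 and 308 to 809, of 14503 to 14537 tested. The cause of these shifts was not tested.

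The log2 fold change turned in 43 instances over the named genes, each uncalled in the main test except Cacng7 in HFpEF-TYA-018 against HFpEF-Veh (0.16 on log2(TPM + 0.1), 0.056 on log2(TPM + 1)). In HFpEF-Veh against Control-Veh, Cacna1a turned to 0.045 when rescaled, Hcn2 to -0.013 and Scn7a to -0.014 on log2(TPM + 0.1), and to -0.0057 and -0.0083 on log2(TPM + 1). Scn3a turned to 0.46 with the offset, 0.046 on log2(TPM + 0.1), 0.019 on log2(TPM + 1) and 0.066 rescaled. In HFpEF-TYA-018 against HFpEF-Veh, the same 4 settings gave 0.013, 0.42, 0.32 and 0.17 for Cacna2d1 and 0.59, 0.39, 0.089 and 0.14 for Scn3b. The offset gave -0.047 for Hcn2 and -0.025 for Hcn4. Without 1 library, Cacna2d1 ran from -0.14 to 0.050, Hcn4 from -0.037 to 0.11 and Cacna1a from -0.75 to 0.11. In HFpEF-TYA-018 against Control-Veh, the 4 settings gave 0.17, 0.30, 0.095 and 0.14 for Cacng7, and the 3 TPM scales gave 0.076, 0.013 and 0.014 for Cacna2d2 and 0.095, 0.015 and 0.0041 for Cacng6. Cacna1g turned to -0.027 with the offset and ran from -0.030 to 0.049 without 1 library, and Cacna1h ran from -0.093 to 0.074.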
